A study of Arabidopsis thaliana with 45 samples.

Results

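FIE-silenced shoots of Arabidopsis thaliana (amiR-fie-es) were set against shoots in which a tagged FIE protein complements the fie mutant (GFP-FIE), over all genes of the RNA count table. The comparison holds 6 of the 45 libraries of the series, 3 of each line, and 20046 of the 32678 counted genes passed the filter on low counts and were tested. The libraries were taken by the line names in the labels and not by a measured value. The comparison and the gene lists below were chosen with earlier results of these data known. In amiR-fie-es an artificial microRNA against FIE was induced with oestradiol (10 mM as written in the labels), which was in the medium from the beginning. GFP-FIE descends from heterozygous fie plants that received wild-type FIE fused to GFP, from which homozygotes were isolated. Both lines grew on solid half-strength MS medium with sucrose, and the aerial part was taken at 2 weeks. Levels in 2 other lines of the same table are given beside those of some genes. These are SSTS/AAAA, a fie mutant carrying a phosphorylation-site mutant form of the same fusion, and Ctrl, the wild type Col-0. The labels give neither the promoter of the fusion, nor how many transgenic lines each name stands for, nor whether GFP-FIE received oestradiol. The transgenes and the line differ together with the level of FIE, and the inducer may differ as well, so their effects cannot be told apart.

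FIE is a WD40-repeat subunit of Polycomb repressive complex 2 (PRC2), which places trimethyl marks on a lysine of histone H3 (H3K27me3) and so keeps genes of other organs and stages silent. In leaves its best-known targets are the MADS-box genes of floral organ identity, the flowering signal FT and the floral repressor FLC. Plants with reduced PRC2 function in the shoot are known for early flowering, curled leaves and homeotic gene expression outside the flower.

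The 6 libraries held 28988077 to 34124557 counts. Levels are given as CPM, counts per 1000000 of a library size scaled by the TMM method, and ± after a log2 fold change is its standard error with 3 libraries per line. The spread among libraries was small, with a biological coefficient of variation of 0.0255, and nothing in the labels says that replicates were grown apart, so the p-values speak for the spread of these libraries alone, which may be technical. The shoot identity of the material was checked against markers: the 25 nuclear photosynthesis genes summed to 119265 to 120553 CPM in amiR-fie-es and 174002 to 175074 CPM in GFP-FIE. Of 12 root markers 9 were too low to test, while PYK10 and SCR, which were listed as root markers, stood at 254 to 256 and 58.5 to 60.3 CPM in amiR-fie-es and at 255 to 262 and 51.4 to 53.8 CPM in GFP-FIE. Scaling bears on small changes here. The 100 most abundant genes of each library held 27% of all counts in each amiR-fie-es library and 33% in each GFP-FIE library, and scaling by library totals in place of TMM raised the median log2 fold change by 0.22.

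FIE itself had 9.10, 8.79 and 8.81 CPM in the amiR-fie-es libraries, against 25.2, 27.6 and 23.8 CPM in the GFP-FIE libraries. The lines did not overlap, and the difference was a log2 fold change of -1.52 ± 0.07 (edgeR adjusted p = 1.45e-23). SSTS/AAAA averaged 11.8 CPM and wild-type Ctrl had 15.7 to 18.6 CPM, so GFP-FIE stood above the wild type and amiR-fie-es below it. Counts per gene do not separate the GFP-tagged copy from the endogenous gene. Called peaks of the mark that PRC2 places differed in number and length between the same 2 lines. The authors' H3K27me3 peak lists held 1845, 1897 and 1943 peaks in amiR-fie-es, against 7200, 7464 and 7278 peaks in GFP-FIE. They covered 0.880 ± 0.027 Mb in amiR-fie-es and 5.41 ± 0.229 Mb in GFP-FIE (SD, n = 3 each, exact permutation test, two-sided, p = 0.1, the smallest that 3 against 3 libraries allow). Median peak width was 385 to 393 bp in amiR-fie-es and 612 to 643 bp in GFP-FIE, and the mean fold enrichment per peak was 4.94 to 5.0 in amiR-fie-es and 3.92 to 4.0 in GFP-FIE, as the authors' peak caller gave it. A longer list of peaks gives a longer covered length by construction. Sequencing depth of the H3K27me3 libraries was not compared here, so the peak lists alone do not measure the amount of the mark.

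Of the 20046 genes tested, 5598 rose in amiR-fie-es relative to GFP-FIE (27.9% of those tested) and 5728 fell (28.6%), at an edgeR adjusted p under 0.05. With library totals in place of TMM, 11266 rose and 3136 fell, so that rises made up 78.2% of the calls against 49.4% with TMM. Most called changes were small: 7944 of the 11326 were under 1.5-fold. At least 2-fold changes were fewer, with 875 rises (4.36%) and 768 falls (3.83%). The tails were unequal, since 142 genes rose at least 8-fold and 33 fell at least 8-fold, and 75 rose at least 16-fold and 8 fell at least 16-fold. Genes that rose at least 2-fold had a median of 2.26 CPM in amiR-fie-es and 0.519 CPM in GFP-FIE, where the median of all tested genes was 13.3 CPM in amiR-fie-es and 13.1 CPM in GFP-FIE. Genes that fell at least 2-fold had a median of 1.28 CPM in amiR-fie-es and 3.68 CPM in GFP-FIE.

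**Figure D1:**
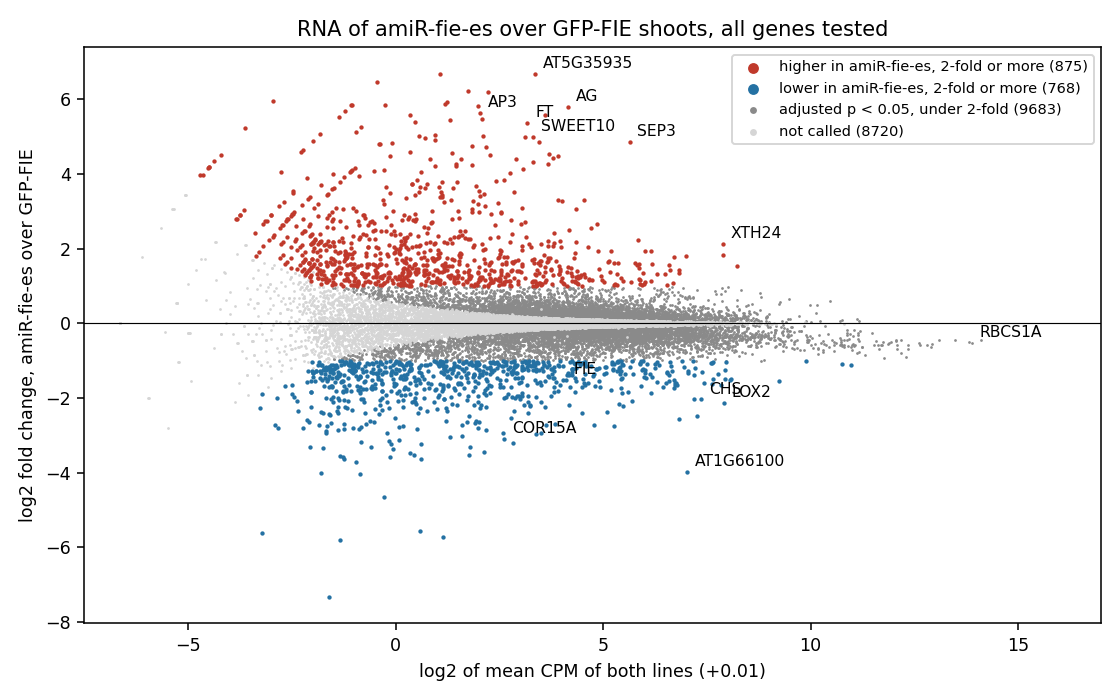
Log2 fold change of amiR-fie-es over GFP-FIE (vertical axis) against the log2 of the mean CPM of both lines (horizontal axis, 0.01 added before the log) for the 20046 genes tested, 1 point per gene. Red points are the 875 genes that rose at least 2-fold and blue points the 768 that fell at least 2-fold, with more points past 8-fold above 0 than below it (142 and 33), and floral genes such as AG, AP3 and SEP3 lie near the upper edge.

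Genes that specify floral organs had more RNA in amiR-fie-es shoots than in GFP-FIE shoots, where all but SEP4 were low. All 14 tested members of a list of 15 floral organ identity genes rose and 0 fell, where 27.9% of all genes tested rose, and their median log2 fold change was 3.63, while the median over all genes tested was 0.0074. In all 14 the amiR-fie-es libraries lay wholly above the GFP-FIE libraries, a pattern that 30.4% of all genes tested showed. AGL13, the remaining member, was too low to test, with 17 counts in amiR-fie-es and 7 in GFP-FIE. The summed level of the list was 203 to 207 CPM in amiR-fie-es and 22.3 to 24.1 CPM in GFP-FIE, where SEP4 made up most of it. In these bulk samples, more cells that transcribe a gene and more RNA per cell cannot be told apart, nor can fewer cells and less RNA where a gene fell.

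Among the genes of the inner organs, AG, which specifies stamens and carpels, had 34.6, 36.2 and 34.8 CPM in amiR-fie-es, against 1.18, 0.317 and 0.374 CPM in GFP-FIE. All amiR-fie-es libraries lay above all GFP-FIE libraries, and the log2 fold change was 5.80 ± 0.13 (edgeR adjusted p = 1.21e-34). GFP-FIE replicate 1 was the highest of its line for AG and also for AP3. AP3, the partner of PI in petals and stamens, had 8.20, 7.88 and 7.85 CPM in amiR-fie-es, against 0.359, 0.0705 and 0.0374 CPM in GFP-FIE (log2 fold change 5.63 ± 0.20, edgeR adjusted p = 1.09e-26). PI had 27.9, 29.0 and 29.2 CPM in amiR-fie-es, against 1.54, 1.02 and 1.31 CPM in GFP-FIE (4.47 ± 0.08). Both genes were thus far above their GFP-FIE level in every amiR-fie-es library. The ovule and fruit genes STK, SHP2 and SHP1 had log2 fold changes of 4.49 ± 0.35, 4.56 ± 0.24 and 2.27 ± 0.34.

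The SEPALLATA genes, whose proteins join the other floral MADS proteins in all whorls, differed among themselves. SEP3 had 94.4, 96.4 and 98.2 CPM in amiR-fie-es, against 3.94, 3.14 and 2.77 CPM in GFP-FIE (log2 fold change 4.87 ± 0.06, edgeR adjusted p = 2.11e-43). SEP1 and SEP2 rose as well but were low in both lines, at 2.05 to 2.23 and 0.811 to 0.985 CPM in amiR-fie-es and at 0.106 to 0.412 and 0.0352 to 0.262 CPM in GFP-FIE. SEP4 had 19.5 to 20.9 CPM in amiR-fie-es and 14.6 to 16.6 CPM in GFP-FIE and showed the smallest change of the list, 0.38 ± 0.06. The outer-whorl and meristem identity gene AP1 had 1.68, 1.43 and 1.23 CPM in amiR-fie-es, against 0.0717, 0.0352 and 0.0374 CPM in GFP-FIE (4.79 ± 0.41). Its relatives FUL and CAL had log2 fold changes of 2.34 ± 0.20 and 1.92 ± 0.45, and AGL6 of 1.90 ± 0.36. On the length-scaled FPKM scale the order in amiR-fie-es was SEP3 at 89.8 ± 1.64, PI at 28.1 ± 0.677, AG at 23.3 ± 0.618 and AP3 at 8.26 ± 0.213 (SD, n = 3), and each step exceeded the spread. In SSTS/AAAA, AP1 and AP3 averaged 10.9 and 36.7 CPM, while AG averaged 30.5 CPM.

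**Figure D2:**
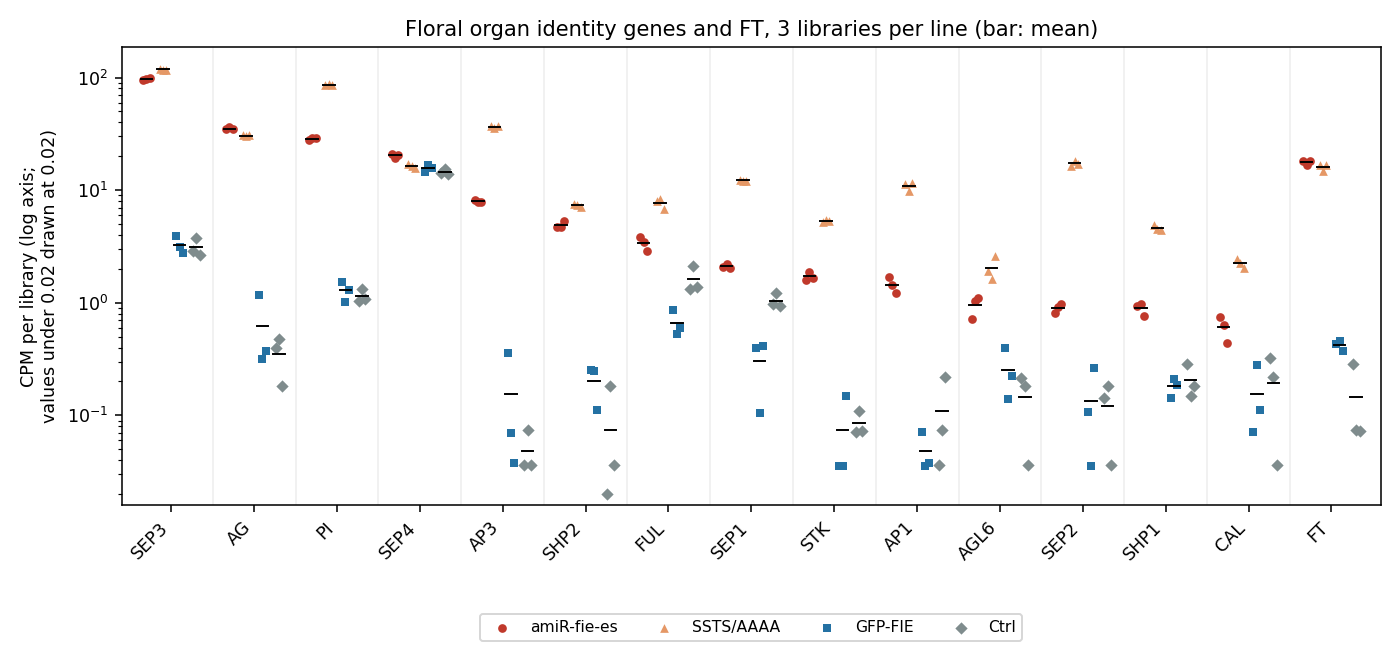
CPM on a log axis (vertical) for the 14 tested floral organ identity genes and FT (horizontal), with the 3 libraries of amiR-fie-es, SSTS/AAAA, GFP-FIE and Ctrl as points and each line's mean as a bar. For each of the 15 genes the 3 amiR-fie-es libraries lie above the 3 GFP-FIE libraries, and the Ctrl libraries of AG, AP3, PI and SEP3 lie near those of GFP-FIE.

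Markers of the developing anther were set beside these genes. Of 10 anther and pollen markers 2 could be tested, and the summed level of the list was 7.78 to 8.24 CPM in amiR-fie-es and 6.13 to 7.35 CPM in GFP-FIE. MS1, DYT1 and MGH3 had 0 counts in both lines. SPL, that is SPOROCYTELESS, an early regulator of sporogenous tissue that AG is known to activate, had 48 counts in amiR-fie-es and 1 in GFP-FIE, a ratio of 38.8 (95% counting interval 6.64 to 1565). LAP6, a pollen-wall enzyme gene, had 6.46 to 7.22 CPM in amiR-fie-es and 5.60 to 6.60 CPM in GFP-FIE and did not pass the test (log2 fold change 0.16 ± 0.09). Embryo and seed genes stayed low. Of 20 listed, 4 could be tested, of which 0 rose and 2 fell, beside 27.9% and 28.6% of all genes tested. AGL15 and AGL18 fell, at -0.97 ± 0.22 and -0.35 ± 0.09 on the log2 scale. With library totals 1 rose, 1 fell and AGL18 was not called.

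Of 18 tested flowering-time genes of a list of 21, 9 rose and 5 fell, where 27.9% of all genes tested rose and 28.6% fell, so the falls are near the share over all genes. The median log2 fold change was 0.47. FT, the mobile flowering signal made in leaf veins, had 18.1, 16.8 and 18.0 CPM in amiR-fie-es, against 0.430, 0.458 and 0.374 CPM in GFP-FIE (5.37 ± 0.14, edgeR adjusted p = 5.01e-32). AGL17, a MADS-box gene, had the largest change of the list, 5.43 ± 0.25, with 4.34 to 5.28 CPM in amiR-fie-es and 0.106 to 0.112 CPM in GFP-FIE. SOC1, LFY and FLC were singled out after their values were seen. SOC1, a target of FT signalling, had 47.9 to 48.2 CPM in amiR-fie-es and 23.4 to 26.4 CPM in GFP-FIE (0.92 ± 0.05), and LFY, the floral meristem regulator, had 1.5 to 2.11 CPM in amiR-fie-es and 0.317 to 0.502 CPM in GFP-FIE (2.19 ± 0.26).

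The floral repressors split. FLC had 6.67, 7.14 and 7.41 CPM in amiR-fie-es, against 2.33, 2.71 and 2.17 CPM in GFP-FIE, a rise of 1.55 ± 0.12 on the log2 scale. SVP, the partner of FLC in repressing FT and SOC1, had 40.5, 43.9 and 42.5 CPM in amiR-fie-es, against 75.1, 76.9 and 76.2 CPM in GFP-FIE, and fell (-0.85 ± 0.03). MAF5, of the FLC clade, had 1.42 to 1.56 CPM in amiR-fie-es and 5.92 to 6.88 CPM in GFP-FIE and showed the largest fall of the list, -2.10 ± 0.13. In FLC all amiR-fie-es libraries were above those of GFP-FIE, and in SVP and MAF5 all were below, as in 30.4% and 30.7% of all genes tested.

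SPL factors (SQUAMOSA PROMOTER BINDING PROTEIN-like) promote the adult phase and flowering, and the AP2-like genes TOE1, SMZ and SNZ repress flowering and are targets of miR172. Of 15 tested members of this vegetative phase change list 6 rose and 6 fell, beside 27.9% and 28.6% of all genes tested, with a median of 0.12 (with library totals, 9 rose and 4 fell). SNZ had 4.0, 4.55 and 4.21 CPM in amiR-fie-es, against 16.8, 16.1 and 16.9 CPM in GFP-FIE (-1.96 ± 0.07, edgeR adjusted p = 9.42e-26). SMZ, TOE3 and TOE1 fell as well, at -1.11 ± 0.13, -1.01 ± 0.10 and -0.87 ± 0.03. Among the SPL genes, SPL8 had the largest rise at 1.58 ± 0.11, followed by SPL5 at 1.13 ± 0.09, SPL9 at 0.76 ± 0.08 and SPL4 at 0.52 ± 0.08, while SPL15 did not pass the test (0.12 ± 0.11). AP2, the founding member of the AP2-like group and also a floral organ gene, went the other way from its relatives, with 26.1 to 29.1 CPM in amiR-fie-es and 12.9 to 13.4 CPM in GFP-FIE (1.09 ± 0.06).

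Meristem and organ boundary genes had smaller changes. Of 11 tested, 5 rose and 2 fell, beside 27.9% and 28.6% of all genes tested, with a median of 0.48 (7 and 1 with library totals). STM, which keeps the shoot meristem undifferentiated, had 6.40, 6.41 and 7.36 CPM in amiR-fie-es, against 4.59, 5.39 and 4.49 CPM in GFP-FIE (0.48 ± 0.09), and averaged 16.5 CPM in SSTS/AAAA. KNAT6 and KNAT1, of the same homeobox class, had changes of 0.71 ± 0.11 and 0.27 ± 0.08, the second of which was not called without amiR-fie-es replicate 1, and the boundary gene LOB of 1.24 ± 0.10. The boundary genes CUC1, CUC2 and CUC3 did not pass the test, at 0.56 ± 0.38, 0.19 ± 0.25 and 0.61 ± 0.31. WOX3 rose by 1.58 ± 0.60 but was at 0.122 to 0.274 CPM in amiR-fie-es and 0.0705 to 0.0748 CPM in GFP-FIE, and neither DESeq2 nor 4 of the 6 fits that left out 1 library called it. WOX4, of the vascular cambium, and WOX1 fell, at -0.59 ± 0.17 and -0.58 ± 0.11, and WOX4 was not called with library totals or without amiR-fie-es replicate 3. Of the 11 leaf polarity genes 6 rose and 2 fell, beside the same shares of all genes, with a median of 0.16 and none past 2-fold (9 and 2 with library totals). The adaxial factor PHB had 63.6 to 65.6 CPM in amiR-fie-es and 94.9 to 97.5 CPM in GFP-FIE (-0.58 ± 0.03) and the abaxial YABBY gene YAB5 fell by 0.76 ± 0.07. AS2, which represses KNOX genes in leaves, rose by 0.73 ± 0.11 and REV, a relative of PHB, by 0.28 ± 0.04.

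The genes of the Polycomb machinery mostly kept to small changes. Of 9 tested PRC2 genes 4 rose and 2 fell, beside 27.9% and 28.6% of all genes tested, with a median of 0.07, and with library totals 7 rose and 1 fell. FIE, the silenced gene itself, is counted among the falls. MEA, a histone methyltransferase of PRC2 known from the endosperm, had 1.47, 1.40 and 1.5 CPM in amiR-fie-es, against 0.0717, 0 and 0.0748 CPM in GFP-FIE (4.81 ± 0.49, edgeR adjusted p = 1.54e-11), with 150 counts in amiR-fie-es and 4 in GFP-FIE. SWN, a methyltransferase of PRC2 in the shoot, rose by 0.26 ± 0.04 with TMM, while CLF, its relative, had 22.8 to 24.9 CPM in amiR-fie-es and 20.9 to 24.4 CPM in GFP-FIE and did not pass the test (0.07 ± 0.06). VRN5, of the vernalization form of PRC2, fell by 0.12 ± 0.05 with TMM, was not called by DESeq2 and stood at 0.10 with library totals. Of 11 genes of PRC1 and of H3K27me3 readers 2 rose and 2 fell, beside the same shares of all genes, with a median of 0.04, whereas 9 rose and 0 fell with library totals. EMF1, a PRC1-associated repressor of flower development in seedlings, had 64.4, 60.4 and 59.4 CPM in amiR-fie-es, against 36.7, 35.3 and 37.8 CPM in GFP-FIE (0.75 ± 0.04, edgeR adjusted p = 5.02e-20). LHP1, a reader of the mark, had 16.6 to 18.3 CPM in amiR-fie-es and 15.1 to 16.5 CPM in GFP-FIE (0.12 ± 0.06, not called with TMM). Of 4 demethylase genes REF6 rose by 0.13 ± 0.04 and ELF6 fell by 0.11 ± 0.04 with TMM, while ELF6 was not called by DESeq2 and stood at 0.11 with library totals.

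**Figure D3:**
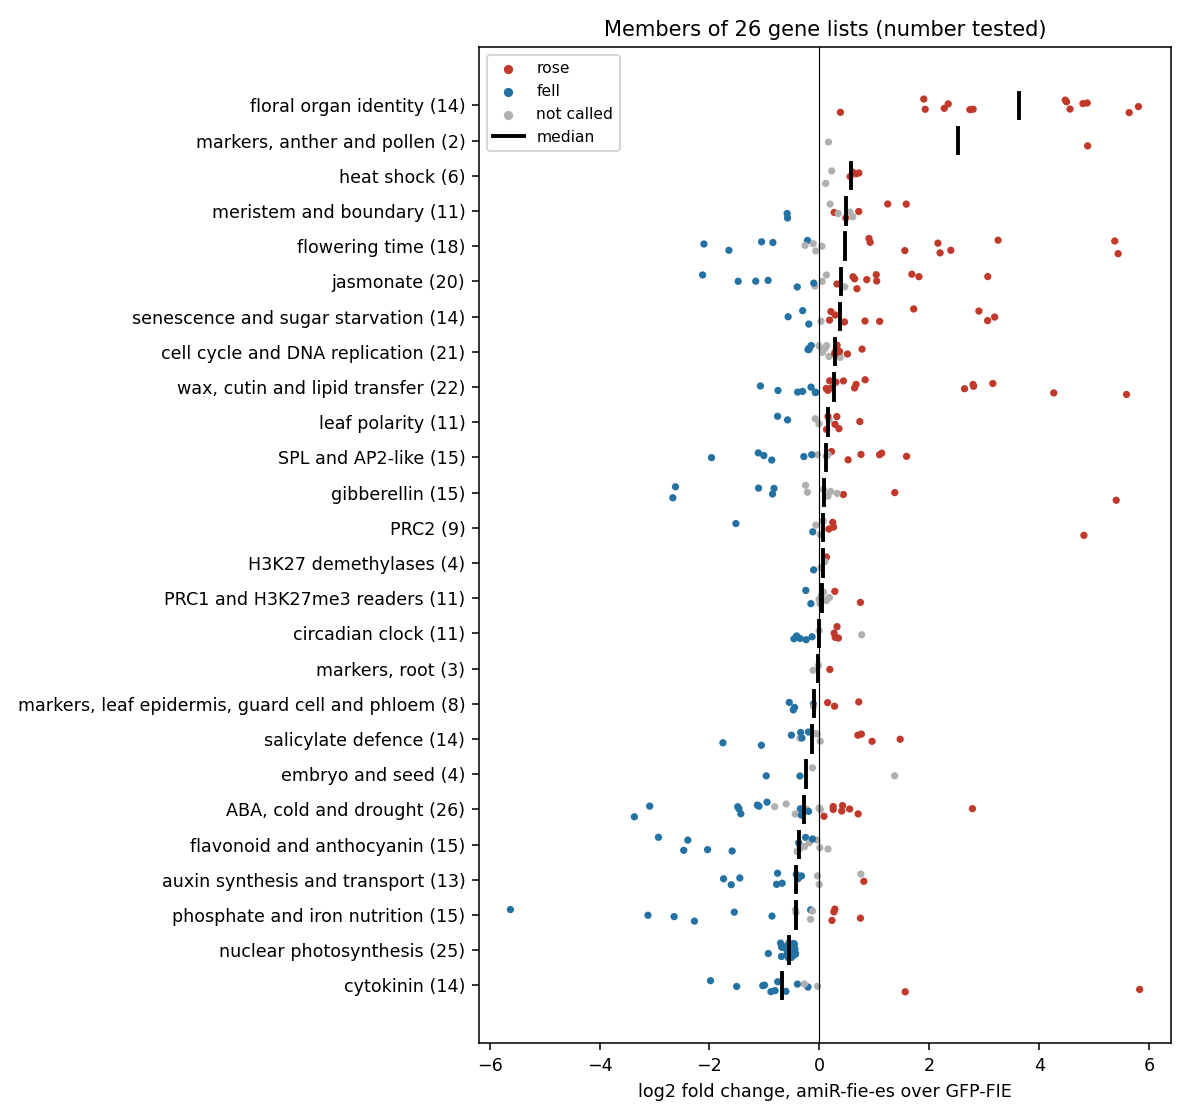
Log2 fold changes of amiR-fie-es over GFP-FIE (horizontal axis) for the tested members of 26 gene lists (vertical axis, number tested in brackets), with 1 point per gene coloured by its call and the median as a black bar. Lists are ordered by median: floral organ identity is at the top, with all 14 members above 0, and cytokinin is at the bottom, next to nuclear photosynthesis, whose 25 members all lie below 0.

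The 12 largest rises were taken among called genes of at least 5 CPM in the higher line, and those outside these lists were of genes nearly silent in GFP-FIE. AT5G35935, an unnamed pseudogene, headed them with 20.6, 19.7 and 20.7 CPM in amiR-fie-es, against 0.502, 0 and 0.0748 CPM in GFP-FIE (6.69 ± 0.18). It averaged 16.3 CPM in SSTS/AAAA and 17.8 CPM in Ctrl, so GFP-FIE stood apart from the other 3 lines. TLP5, a tubby-like protein gene, and SVL3, which encodes a glycerophosphodiester phosphodiesterase-like protein, had 6.60 ± 0.349 and 9.15 ± 0.308 CPM in amiR-fie-es, against 0.0829 ± 0.0737 and 0.119 ± 0.150 CPM in GFP-FIE (SD, n = 3 each). Unlike the pseudogene, both were low in Ctrl, at 0.0245 and 0.0482 CPM. FTM1, a fatty acid desaturase gene named for its expression in meristems at the floral transition, averaged 23.8 CPM in amiR-fie-es and 0.493 CPM in GFP-FIE (5.58 ± 0.14). SWEET10, a sucrose transporter known to respond to FT, averaged 19.3 CPM in amiR-fie-es and 0.600 CPM in GFP-FIE (4.99 ± 0.12). HB40, a homeodomain-leucine zipper factor, NAC047, a NAC factor of leaf hyponasty, and AT4G19430, which has no name in the reference, had log2 fold changes of 5.47 ± 0.20, 5.03 ± 0.20 and 4.99 ± 0.12. In every gene of this paragraph the lines did not overlap, which the choice of these genes required.

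Among the 6 largest gains in CPM of any gene, those of 2 genes were over 2-fold. XTH24, a xyloglucan-modifying enzyme gene, had 396, 387 and 371 CPM in amiR-fie-es, against 93.4, 83.0 and 85.7 CPM in GFP-FIE (2.14 ± 0.03, edgeR adjusted p = 1.26e-42). GASA1, a gibberellin-regulated peptide gene, had 437 to 451 CPM in amiR-fie-es and 152 to 153 CPM in GFP-FIE (1.55 ± 0.02). The polyubiquitin gene UBQ10, the nitrate reductase gene NIA2, the xylosidase gene BXL1 and AT1G20620, listed as catalase 3, gained less in fold, at 0.59 ± 0.02, 0.50 ± 0.02, 0.49 ± 0.02 and 0.66 ± 0.02 on the log2 scale. UBQ10 averaged 1707 CPM in amiR-fie-es and 1132 CPM in GFP-FIE.

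Among called genes of at least 5 CPM in the higher line, the 12 largest falls were smaller in fold than the 12 largest rises. AT1G66100, which has no name in the reference, headed them with 14.96, 16.1 and 15.02 CPM in amiR-fie-es, against 230, 252 and 247 CPM in GFP-FIE (-3.98 ± 0.04). It averaged 15.4 CPM in SSTS/AAAA and 181 CPM in Ctrl. MEE3, a MYB-related gene, had 0.410 to 0.751 CPM in amiR-fie-es and 5.89 to 6.73 CPM in GFP-FIE (-3.32 ± 0.18), and CRK41, a receptor-like kinase gene, had 1.16 to 1.59 CPM in amiR-fie-es and 12.3 to 13.4 CPM in GFP-FIE (-3.20 ± 0.12). EXPB1, which encodes a wall-loosening beta-expansin, fell by 2.93 ± 0.12 and GLN1;4, a cytosolic glutamine synthetase gene, by 2.81 ± 0.15. The unnamed genes AT2G47880, AT3G55646 and AT2G28780 fell by 3.45 ± 0.15, 3.00 ± 0.17 and 2.86 ± 0.15. IAA6, IAA1, COR15A and DFR complete the set and are described with their lists. For all 12 the lines did not overlap, which the choice of these genes required.

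All 25 nuclear photosynthesis genes fell and 0 rose, where 28.6% of all genes tested fell, with a median of -0.55 on the log2 scale, and the same 25 and 0 were called with library totals. The small subunit of Rubisco, RBCS1A, had 12575, 12410 and 12592 CPM in amiR-fie-es, against 18028, 17776 and 17928 CPM in GFP-FIE (-0.52 ± 0.01, edgeR adjusted p = 4.81e-33). RBCS2B had the largest change of the list, with 2412 to 2423 CPM in amiR-fie-es and 4491 to 4677 CPM in GFP-FIE (-0.93 ± 0.02). The light-harvesting gene LHCB1.3 averaged 14761 CPM in amiR-fie-es and 20245 CPM in GFP-FIE (-0.46 ± 0.01). CA1, the chloroplast carbonic anhydrase gene, averaged 3527 CPM in amiR-fie-es and 6610 CPM in GFP-FIE (-0.91 ± 0.01), and RCA, which encodes Rubisco activase, fell by 0.51 ± 0.01. RBCS and LHCB copies are nearly identical, and the treatment of reads that match more than 1 copy is not known here, so their separate values are uncertain. The share of chloroplast-encoded transcripts was 0.780% to 0.824% in amiR-fie-es and 1.03% to 1.12% in GFP-FIE (exact permutation test, two-sided, p = 0.1, the smallest possible), and 82 of the 114 tested fell and 5 rose, beside 28.6% and 27.9% of all genes tested. Markers of leaf epidermis, guard cells and phloem summed to 743 to 765 CPM in amiR-fie-es and 730 to 767 CPM in GFP-FIE, ranges that overlap. Of these 8 markers 3 rose and 4 fell (4 and 3 with library totals), beside 27.9% and 28.6% of all genes tested, with a median of -0.11. The falls included the phloem genes SUC2 and APL, at -0.55 ± 0.02 and -0.48 ± 0.07. The other falls, like the 3 rises, were of epidermis or guard cell markers, so these markers went both ways. The part of tissue composition in the fall of photosynthesis genes was not tested.

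Late genes of anthocyanin synthesis fell. Of 15 tested flavonoid and anthocyanin genes 0 rose and 8 fell, 5 of them at least 2-fold, with a median of -0.37 (3 rose and 6 fell with library totals), where 27.9% of all genes tested rose and 28.6% fell. DFR, the dihydroflavonol reductase of the pathway, had 2.85, 2.47 and 2.57 CPM in amiR-fie-es, against 18.9, 21.8 and 19.4 CPM in GFP-FIE (-2.93 ± 0.09, edgeR adjusted p = 6.47e-30). CHS, the entry enzyme chalcone synthase, had 63.5, 65.1 and 65.8 CPM in amiR-fie-es, against 268, 266 and 263 CPM in GFP-FIE (-2.03 ± 0.02). The late genes LDOX and TT19 fell by 2.39 ± 0.09 and 2.47 ± 0.15, and TT8, a bHLH regulator of late genes, by 1.59 ± 0.31. The other genes named here did not follow a split by step: the entry gene CHS fell by over 2-fold, as given above, while FLS1 was at -0.38 ± 0.05 and CHI at -0.25 ± 0.06. CHI was not called with library totals. For the genes past 2-fold, Ctrl lay on the side of GFP-FIE, with DFR at 17.3 CPM and CHS at 358 CPM, and SSTS/AAAA on the side of amiR-fie-es, with 1.72 and 95.5 CPM.

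**Figure D4:**
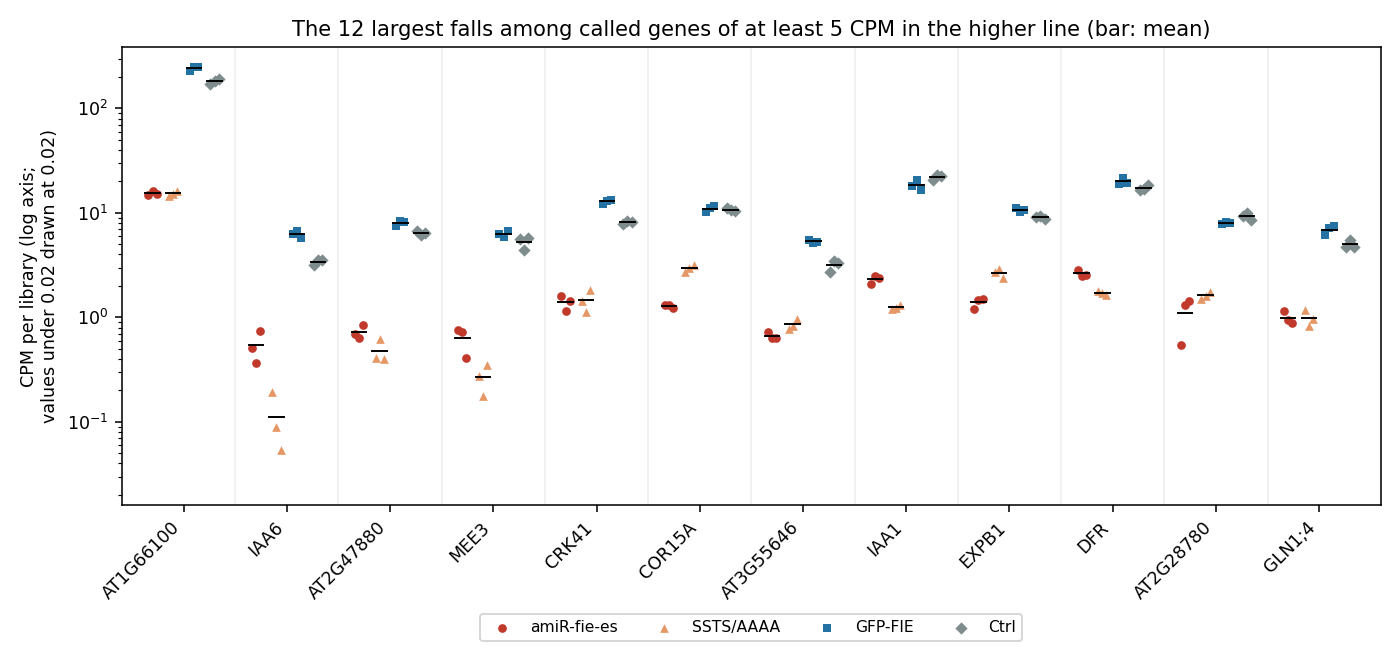
CPM on a log axis (vertical) for the 12 largest falls in amiR-fie-es among called genes of at least 5 CPM in the higher line (horizontal), with the 3 libraries of amiR-fie-es, SSTS/AAAA, GFP-FIE and Ctrl as points and each line's mean as a bar. The 3 amiR-fie-es libraries lie below the 3 GFP-FIE libraries for each gene, for example at 2.47 to 2.85 CPM in amiR-fie-es and 18.9 to 21.8 CPM in GFP-FIE for DFR.

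Auxin genes fell in large part. The Aux/IAA repressors are short-lived proteins whose genes are switched on by auxin, and IAA6 and IAA1 were among the 12 largest falls of called genes with at least 5 CPM in the higher line. IAA1 had 2.103, 2.504 and 2.41 CPM in amiR-fie-es, against 18.0, 20.5 and 16.5 CPM in GFP-FIE (-2.97 ± 0.09, edgeR adjusted p = 8.67e-29), and IAA6 had 0.366 to 0.738 CPM in amiR-fie-es and 5.80 to 6.66 CPM in GFP-FIE (-3.52 ± 0.18). Of 13 tested genes of auxin synthesis and transport 1 rose and 9 fell, beside 27.9% and 28.6% of all genes tested, with a median of -0.42 (3 and 8 with library totals). The flavin monooxygenase genes YUC3 and YUC8, of auxin synthesis, fell by 1.74 ± 0.40 and 1.60 ± 0.23, whereas YUC4 rose by 0.81 ± 0.23. The efflux carrier PIN3 had 167, 172 and 175 CPM in amiR-fie-es, against 289, 284 and 300 CPM in GFP-FIE (-0.76 ± 0.02), and PIN4 fell by 0.78 ± 0.03.

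Cytokinin genes had the lowest median of all lists. Of 14 tested 2 rose and 10 fell, beside 27.9% and 28.6% of all genes tested, with a median of -0.68 (3 and 8 with library totals). The 2 that rose were cytokinin oxidases, which degrade the hormone: CKX3 had 7.78, 8.00 and 7.44 CPM in amiR-fie-es, against 0.251, 0.0352 and 0.112 CPM in GFP-FIE (5.82 ± 0.24, edgeR adjusted p = 2.12e-24), and CKX1 rose by 1.56 ± 0.14. CKX4 of the same family fell by 1.98 ± 0.21. Type-A response regulators, which cytokinin induces, were among the falls. ARR4 had 62.7 to 65.2 CPM in amiR-fie-es and 128 to 135 CPM in GFP-FIE (-1.03 ± 0.03), ARR9 fell by 1.00 ± 0.04 and ARR15 by 1.51 ± 0.11.

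Among 15 tested gibberellin genes there were 3 rises and 5 falls, with a median of 0.07 (7 and 5 with library totals, so that the larger direction turned). Over all genes tested 27.9% rose and 28.6% fell, so these counts say nothing particular about the list. CYP714A1, a P450 that inactivates gibberellins, had 2.46, 2.53 and 3.09 CPM in amiR-fie-es, against 0.0717, 0.106 and 0 CPM in GFP-FIE (5.40 ± 0.35). The inactivating oxidase genes GA2OX1 and GA2OX4 fell by 2.67 ± 0.48 and 2.62 ± 0.35, and GFP-FIE itself had only 0.486 to 0.670 and 0.916 to 1.35 CPM of them. Of the synthesis genes, GA3OX1 fell by 1.11 ± 0.08 and GA20OX1 by 0.83 ± 0.15, while GA20OX2 and KAO2 rose by 1.37 ± 0.22 and 0.43 ± 0.04.

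Of 20 tested jasmonate genes 10 rose and 6 fell, beside 27.9% and 28.6% of all genes tested, with a median of 0.39 (14 and 4 with library totals). LOX2, the lipoxygenase of the first step in the chloroplast, had 93.1, 87.6 and 87.0 CPM in amiR-fie-es, against 380, 399 and 389 CPM in GFP-FIE (-2.13 ± 0.03, edgeR adjusted p = 4.16e-44). VSP1, a vegetative storage protein gene induced by jasmonate, had 36.4, 38.4 and 34.6 CPM in amiR-fie-es, against 4.52, 4.19 and 4.38 CPM in GFP-FIE (3.06 ± 0.07, edgeR adjusted p = 4.78e-34). Further members were singled out after their values were seen. The next steps AOS and AOC2 fell by 0.93 ± 0.03 and 1.48 ± 0.04, whereas OPR3, a later step, rose by 1.03 ± 0.03. The regulator MYC2 had 123 to 128 CPM in amiR-fie-es and 60.6 to 61.5 CPM in GFP-FIE (1.04 ± 0.03), and the response genes VSP2 and JAZ10 rose by 1.81 ± 0.03 and 1.68 ± 0.07. SSTS/AAAA averaged 30.7 CPM for MYC2 and 236 CPM for VSP2.

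Of 14 tested salicylate defence genes 4 rose and 6 fell, with a median of -0.14 (5 and 4 with library totals), beside 27.9% and 28.6% of all genes tested, so the rises are near the share over all genes. The calmodulin-binding regulator CBP60G had 0.571, 1.07 and 1.04 CPM in amiR-fie-es, against 3.08, 3.14 and 2.88 CPM in GFP-FIE (-1.76 ± 0.18), and the factor WRKY70 fell by 1.06 ± 0.09. PR5, a thaumatin-like defence protein gene, had 21.3, 22.6 and 24.3 CPM in amiR-fie-es, against 7.93, 8.39 and 8.34 CPM in GFP-FIE (1.47 ± 0.07). The salicylate transport and synthesis genes EDS5 and PBS3 rose by 0.70 ± 0.13 and 0.76 ± 0.11.

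Among 26 tested cold, drought and abscisic acid genes there were 8 rises and 11 falls, with a median of -0.28 (10 and 9 with library totals). The share of rises is near the 27.9% over all genes tested, of which 28.6% fell. COR15A, which encodes a chloroplast protein of freezing tolerance, had 1.32, 1.31 and 1.23 CPM in amiR-fie-es, against 10.3, 11.03 and 11.6 CPM in GFP-FIE (-3.09 ± 0.11, edgeR adjusted p = 2.65e-26). GolS2, a galactinol synthase gene, had the largest fall, -3.37 ± 0.28, with 0.109 to 0.210 CPM in amiR-fie-es and 1.53 to 2.08 CPM in GFP-FIE. RD22, a dehydration-responsive gene, had 103 to 107 CPM in amiR-fie-es and 286 to 302 CPM in GFP-FIE (-1.49 ± 0.03). KIN1, a cold-induced gene, had the largest rise of the list, 2.78 ± 0.47, at 0.451 to 0.702 CPM in amiR-fie-es and 0.0717 to 0.106 CPM in GFP-FIE, and stood at 4.18 CPM in Ctrl.

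Senescence and sugar-starvation genes had 10 rises and 3 falls among 14 tested, beside 27.9% and 28.6% of all genes tested, and a median of 0.37 (10 and 2 with library totals). BCAT2, a branched-chain amino acid aminotransferase gene, had 7.33, 7.05 and 7.11 CPM in amiR-fie-es, against 0.968, 0.670 and 0.711 CPM in GFP-FIE (3.19 ± 0.15, edgeR adjusted p = 7.36e-23). ORE1, a NAC factor that promotes leaf senescence, had 7.30, 5.83 and 5.96 CPM in amiR-fie-es, against 0.932, 0.493 and 0.860 CPM in GFP-FIE (3.06 ± 0.16). SEN1 and SAG21, named for their rise in senescing leaves, rose by 1.1 ± 0.04 and 1.71 ± 0.08. SAG12, the defining marker of late leaf senescence, had 0 counts in both lines. TPS8, a class II trehalose-phosphate synthase gene, fell by 0.57 ± 0.02, and DIN10, a sugar-starvation gene, was called lower with TMM (-0.19 ± 0.02) and stood at 0.02 with library totals.

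Surface lipid genes had 15 rises and 7 falls among 22 tested, beside 27.9% and 28.6% of all genes tested, with a median of 0.26 (18 and 4 with library totals). LTP4, a lipid transfer protein gene, had 2.25, 2.08 and 3.12 CPM in amiR-fie-es, against 0, 0.106 and 0.0374 CPM in GFP-FIE (5.59 ± 0.35, edgeR adjusted p = 5.17e-18). Ctrl averaged 43.4 CPM for LTP4, so both lines were below the wild type. ATT1, a cytochrome P450 gene of cutin synthesis, had the largest fall, with 122 to 129 CPM in amiR-fie-es and 260 to 268 CPM in GFP-FIE (-1.07 ± 0.03). The wax genes CER4, WSD1 and CER1, singled out after their values were seen, rose by 4.26 ± 0.23, 2.64 ± 0.13 and 0.83 ± 0.03. LTP1, the most abundant called member in CPM, was at -0.15 ± 0.02 with TMM and at 0.07 with library totals.

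Cell cycle and DNA replication genes had 10 rises and 3 falls among 21 tested, all under 2-fold, beside 27.9% and 28.6% of all genes tested, with a median of 0.28 (16 and 0 with library totals). CYCD3;3, a D-type cyclin gene, had the largest rise, with 28.9, 30.4 and 27.9 CPM in amiR-fie-es, against 16.1, 18.8 and 16.05 CPM in GFP-FIE (0.78 ± 0.06). PCNA1, the replication clamp, and MCM4, of the replicative helicase, rose by 0.51 ± 0.06 and 0.37 ± 0.05, both singled out after their values were seen. The related D-type cyclin gene CYCD3;2 fell by 0.21 ± 0.03 with TMM and stood at 0.01 with library totals. Heat shock genes had 4 rises and 0 falls among 6 tested, beside the same shares of all genes, with a median of 0.58 (5 and 0 with library totals). HSP101 was at 0.60 ± 0.07 and HSP90.1 at 0.56 ± 0.07.

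Circadian clock genes changed by less than 2-fold, with 4 rises and 5 falls among 11 tested, beside 27.9% and 28.6% of all genes tested, and a median of -0.0047 (7 and 3 with library totals). The morning genes LHY and RVE8 had changes of -0.35 ± 0.02 and -0.46 ± 0.03, and CCA1, at 279 to 280 CPM in amiR-fie-es and 328 to 333 CPM in GFP-FIE, fell by 0.24 ± 0.02 with TMM but was not called with library totals (-0.02). The evening genes GI and ELF3 rose by 0.34 ± 0.06 and 0.32 ± 0.08. The labels give no time of day for the harvest, and its part in these changes was not tested.

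Of 15 phosphate and iron nutrition genes 4 rose and 7 fell, beside 27.9% and 28.6% of all genes tested, with a median of -0.43 (4 and 6 with library totals). The 4 iron-deficiency bHLH genes of subgroup Ib all fell. BHLH101 had 0.120, 0.244 and 0.274 CPM in amiR-fie-es, against 1.69, 1.83 and 2.17 CPM in GFP-FIE (-3.12 ± 0.27, edgeR adjusted p = 1.67e-13). BHLH39 had 0 counts in amiR-fie-es and 16 in GFP-FIE, at least 6.59-fold lower in amiR-fie-es when set against a floor of 3 counts over its 3 libraries. BHLH100 had 6 counts in amiR-fie-es and 32 in GFP-FIE, and the fall of BHLH38 was not called without amiR-fie-es replicate 1 or without GFP-FIE replicate 3. BHLH38 had 3 counts in amiR-fie-es and 13 in GFP-FIE, a ratio of GFP-FIE over amiR-fie-es of 5.36 (95% counting interval 1.47 to 29.3). FER1, the gene of the iron-storage protein ferritin, had 99.6, 102 and 101 CPM in amiR-fie-es, against 61.6, 56.8 and 61.9 CPM in GFP-FIE (0.75 ± 0.03). SQD2 and MGD2, which make membrane lipids without phosphate, fell by 0.86 ± 0.04 and 1.55 ± 0.13.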

How the data were processed

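RNA of the aerial parts was sequenced in 12 libraries of 4 lines, and 6 of them are compared here. Per the submitters' processing notes, reads were handled with FastQC 0.11.5, Trimmomatic 0.36, HISAT2 2.1.0 and featureCounts of Subread 1.5.3 on build TAIR10. The ChIP-seq notes name BWA 0.7.15-r1142, SAMtools 1.6 and MACS2, and hg19 beside TAIR10. Strand and the handling of multiply matching reads are not given in the sources used here, so antisense, overlapping and near-identical genes are uncertain.

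The authors deposited a table of raw counts for 32678 genes, and an FPKM table whose values equal count over length and library total. H3K27me3 peaks were deposited per library with the authors' fold enrichment, a ratio, and −log10 q. Gene names come from RefSeq, by which 31912 IDs matched.

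Genes were tested with edgeR 4.0.16 in R 4.3.3 (filterByExpr, TMM, quasi-likelihood F test, 1 fit of all 12 libraries, Benjamini-Hochberg over all genes tested, threshold 0.05, two-sided), and the script was first checked on simulated counts. The standard error is the fold change over the root of F. CPM are counts over the TMM-scaled library size. DESeq2 1.42.0, RLE size factors, no filter, 6 libraries alone, a replicate block, each library left out, and library totals (added after seeing the data) were the alternatives.

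Named genes are FIE; the 12 largest rises and falls among called genes whose lines do not overlap and whose higher mean is at least 5 CPM; the 6 largest CPM differences in each direction; in each of the 26 lists the largest rise, the largest fall and the most abundant called member; and any member of lists with up to 15 measured genes. Other genes are said to be singled out. The comparison and the lists were chosen with earlier results of these data known. Of 410 list entries 3 were dropped because their symbol is not in the name table. Intervals and floors cover counting error only. Per-gene H3K27me3 marking and promoter motifs were planned and not run, since no gene positions of build TAIR10 and no promoter sequences were used here. Replicate numbers were not used to pair the libraries in the main fit.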

Additional observations from a re-analysis of the deposited data

How the results depend on the processing

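With library totals in place of TMM, 11266 genes rose and 3136 fell. That setting turned the sign of 8 named genes, giving log2 fold changes of 0.11 for ELF6, 0.0246 for DIN10, 0.065 for LTP1, 0.0098 for CYCD3;2, 0.10 for VRN5, 0.0628 for VAL1, 0.11 for ATML1 and 0.20 for PYK10, all small with TMM, and moved 19 of the 52 list counts by over 1.5 times. The counts of rises and falls were 4872 and 4922 with DESeq2, 5873 and 5533 without a filter, and 5107 to 5206 and 5321 to 5441 with 1 library left out. At 2-fold or more they were 864 to 901 and 761 to 789 with 1 library left out. Of the 198 named genes, 180 kept direction and call with library totals, 194 with DESeq2 and 193 to 196 in the fits that left out 1 library. H3K27me3 covered length differed by -3.97 Mb when only peaks with −log10 q of at least 5 were kept, against -4.53 Mb over all peaks, and by -4.60 to -4.40 Mb with 1 library left out. The chloroplast share differed by -0.29 to -0.25 percentage points with 1 library left out. The cause of these shifts was not tested.

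A replicate block gave 5571 rises and 5688 falls and changed no call of a named gene. The deviations of same-numbered libraries correlated at -0.0037, 0.022 and 0.037. These values cannot show whether libraries were grown or prepared in pairs, which the labels do not say.

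Genes under about 1 CPM rest on few reads per library, and their fold changes carry the widest errors. With 3 libraries a line, an exact test of a single value cannot go below p = 0.1.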

Other observations

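Some gene families outside the lists above were chosen after their values were seen, so their counts and calls by edgeR are a description and support nothing. Over all genes tested, 27.9% rose and 28.6% fell, and each count below is to be read beside those shares. Genes of sulphate assimilation and the sulphur-deficiency response were low in amiR-fie-es: of 8 tested 0 rose and 7 fell, and the median log2 fold change was -1.71, with the same counts with library totals. APR2, an adenylylsulphate reductase gene, averaged 130 ± 2.04 CPM in amiR-fie-es and 364 ± 11.9 CPM in GFP-FIE (SD, n = 3 each). APR1 averaged 61.3 CPM in amiR-fie-es and 136 CPM in GFP-FIE, and APR3 54.9 CPM in amiR-fie-es and 103 CPM in GFP-FIE. ATSDI1, named for its induction by sulphur deficiency, averaged 2.02 ± 0.023 CPM in amiR-fie-es and 11.7 ± 1.16 CPM in GFP-FIE. The LSU genes LSU1, LSU2 and LSU3 fell by 2.86 ± 0.44, 1.94 ± 0.09 and 2.32 ± 0.36 on the log2 scale, and LSU4 did not pass the test at -0.64 ± 0.34.

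Of 26 tested Aux/IAA genes 2 rose and 18 fell, and of 59 genes with a SAUR name, a family of small auxin-induced transcripts, 12 rose and 31 fell, with medians of -0.51 and -0.52. With library totals in place of TMM these counts were 6 and 17 for Aux/IAA genes and 16 and 28 for SAUR genes. AXR3, an Aux/IAA gene, averaged 9.97 CPM in amiR-fie-es and 66.5 CPM in GFP-FIE, while IAA31 rose by 1.80 on the log2 scale. SAUR36 rose by 3.30. The families were matched by name alone. AT5G01830, listed as SAUR21 and counted among the 12 rises, had 5.97 CPM but 2.59 FPKM in amiR-fie-es. It is thus too long for a small transcript and may not belong to the family. Among the light-signalling PIF genes, which promote stem elongation, PIF4 averaged 76.1 ± 2.25 CPM in amiR-fie-es and 172 ± 1.23 CPM in GFP-FIE, PIF7 averaged 23.9 ± 0.780 CPM in amiR-fie-es and 61.2 ± 3.03 CPM in GFP-FIE, and PIF3 rose by 0.43 ± 0.06. PIL1 rose by 1.05 ± 0.38, with libraries of the lines overlapping. In all, 2 of the 7 tested rose and 4 fell, with a median of -0.22 (2 and 3 with library totals). Of 16 tested expansin genes 4 rose and 8 fell, and 7 rose and 7 fell with library totals. EXPA8 averaged 19.8 CPM in amiR-fie-es and 84.3 CPM in GFP-FIE, and EXPA9 averaged 8.28 CPM in amiR-fie-es and 3.84 CPM in GFP-FIE.

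Mitochondrial transcripts made up 0.0175% of amiR-fie-es counts and 0.0160% in GFP-FIE (exact permutation test, two-sided, p = 0.1, the smallest possible). Of 36 mitochondrial genes tested 2 rose and 23 fell, beside 27.9% and 28.6% of all genes tested. The share is of raw library totals, whereas the calls rest on TMM scaling, so their directions cannot be set against each other.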
